A study of Mus musculus with 33 samples.

Results

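The cytoplasmic ribosomal protein genes described here are the protein-coding genes of mouse whose symbol has the form Rpl or Rps with a number, together with the stalk proteins Rplp0, Rplp1 and Rplp2 and with Rpsa, without pseudogenes. This rule found 20 of the 10445 genes with a name here. For each gene 1 probe was used, the one with the highest mean in the authors' normalized table. Names were at hand only for probes of that table, which holds 16712 of the 45281 probes with an intensity. Ribosomal protein genes read only by unnamed probes are therefore missing. Shares of members given below describe these 20 genes, not the whole family. By the start of the symbol, 11 were counted to the large subunit (Rpl10a, Rpl22l1, Rpl26, Rpl27, Rpl38, Rpl3l, Rpl4, Rpl41, Rpl7l1, Rplp0 and Rplp2) and 9 to the small subunit (Rps10, Rps19, Rps27l, Rps29, Rps3, Rps3a1, Rps4x, Rps7 and Rps9). Whether each protein, such as Rpl7l1, is part of the mature ribosome was not examined. All 20 passed the filter on dim probes, and 18 were detected on all 33 arrays. The rule used symbols and no contrast between groups. Rplp1, Rpsa and Rps6 were not among the named genes and were not analysed here.

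All samples came from C57BL/6 mice, a widely used inbred strain, at an age of 8 weeks, and the labels name no transgene or drug for any group. Tissue of the uterine microenvironment was taken at day 4 (4 arrays), day 6 (6 arrays), day 8 (4 arrays), day 10 (4 arrays), day 11 (4 arrays) and day 12 (5 arrays) after fertilization, and the controls were uteri of mice that were not pregnant (6 arrays). RNA of each sample was measured on a single-colour Illumina bead array. No source used here says that arrays hold separate animals, so the p-values measure the spread between these samples, which may be technical.

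Ribosomal proteins surround the ribosomal RNA in the small subunit, which reads the mRNA, and in the large subunit, which forms the peptide bond. Their genes are among the most strongly expressed of a mammalian cell, and their mRNAs carry at the first transcribed bases a pyrimidine-rich stretch, the terminal oligopyrimidine (TOP) motif, through which growth signals control their translation. Growing tissues such as the decidua, the stroma that surrounds the implanted embryo, and the placenta make many ribosomes, and ribosome assembly takes place in the nucleolus.

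The bases around the RefSeq transcription start (build GRCm38.p6) show the kind of promoter these genes have. The windows of 40 bases before to 20 bases after the start are printed for the 5 members that fell at each of days 10, 11 and 12, and for Rpl38 and Rps10, which with Rps3a1 hold both searched motifs in this window. Letters are lower case, 5′ to 3′ on the strand of the gene, and capitals mark CTTTC within 20 bases of the start, a short pyrimidine run, or CCGGAAG anywhere in the window, the core recognized by transcription factors of the ETS family, or the reverse complement of either, which means that the motif lies on the opposite strand. Where RefSeq gives several starts, as for Rps19 (3) and Rpl10a (2), the most upstream was used.
Rps9, chr7:3704001-3704060, plus strand: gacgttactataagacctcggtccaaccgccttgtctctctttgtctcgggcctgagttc
Rps4x, chrX:102189372-102189431, minus strand: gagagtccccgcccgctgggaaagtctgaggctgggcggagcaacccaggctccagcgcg
Rps3a1, chr3:86142649-86142708, minus strand: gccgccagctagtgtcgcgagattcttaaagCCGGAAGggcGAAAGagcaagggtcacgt
Rps19, chr7:24884552-24884611, plus strand: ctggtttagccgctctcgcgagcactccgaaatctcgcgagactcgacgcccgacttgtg
Rpl10a, chr17:28328431-28328490, plus strand: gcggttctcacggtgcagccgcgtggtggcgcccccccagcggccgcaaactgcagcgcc
Rpl38, chr11:114668540-114668599, plus strand: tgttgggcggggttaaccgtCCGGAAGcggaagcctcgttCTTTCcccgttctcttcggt
Rps10, chr17:27635225-27635284, minus strand: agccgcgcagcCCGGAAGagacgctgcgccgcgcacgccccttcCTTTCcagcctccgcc

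Of the 20 members, 19 had a RefSeq promoter here. CTTTC lay within 20 bases of the start, on either strand, in 5 of 19 (26.3%: Rpl38, Rpl4, Rplp2, Rps10 and Rps3a1), against 9.94% of the 27025 genes with a promoter. On the strand of the gene, where it is a pyrimidine run of the transcript's sense, it lay in 4 of 19, against 5.4% of all genes. CCGGAAG lay within the 300 bases from 250 before to 50 after the start in 8 of 19 (42.1%), against 9.14% of all genes. The TATA box sequence TATAAA lay there in 2 of 19 (10.5%: Rpl22l1 and Rplp0), against 14.2% of all genes. Of the 5 members that fell at each of days 10 to 12, Rps3a1 held CCGGAAG, and CTTTC on the opposite strand only, so that its own strand reads GAAAG, and the other 4 held neither motif. A match is a run of letters, not a measured binding site, and the sequences were not used in any comparison of tissues.

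Values below are log2 of the background-corrected, quantile-normalized intensity, where 1 unit is a factor of 2. A gene is said to have risen or fallen where limma's moderated test gave an adjusted p under 0.05 (Benjamini-Hochberg over the 10412 genes tested). Across the arrays, 31 had 15040 to 18692 probes above background, and 2 dim arrays, day 6 replicate 4 and non-pregnant replicate 4, had 13149 and 13097. The tissue held markers of its labelled source. The 8 measured genes of uterine stroma and muscle included the smooth muscle genes Myh11 and Acta2, the progesterone receptor Pgr and the oestrogen receptor Esr1, each detected on all arrays. Hoxa10 and Hoxa11 of the same list were each detected on 3 of 6 non-pregnant arrays, and at day 12 on 0 and 1 of 5 arrays. Because whole tissue was measured, fewer cells of a type and less RNA per cell cannot be told apart.

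Few ribosomal protein genes passed the test at days 4 and 6. From day 8 on 8 or more of them fell. Against non-pregnant uterus, 0 members rose and 1 fell at day 4 (8.98% of all genes tested passed in either direction, 4.46% rose and 4.52% fell). At day 6, 1 rose and 3 fell (38.8% of all genes passed, 20% rose and 18.9% fell). At day 8, 1 rose and 8 fell (51% of all genes passed, 24.8% rose and 26.2% fell). At day 10, 1 rose and 12 fell (54% of all genes passed, 26.6% rose and 27.4% fell). At day 11, 0 rose and 8 fell (58.2% of all genes passed, 30.7% rose and 27.5% fell), and at day 12, 0 rose and 8 fell (60.8% of all genes passed, 31.8% rose and 29% fell). The 12 falls at day 10 were 60% of the members and the single rise 5%, so the members' calls lay mostly on 1 side, where those of all genes were split nearly evenly. In either direction together, 65% of the members passed at day 10 and 40% at each of days 11 and 12, near the share of all genes at day 10 and below it at days 11 and 12. At an unadjusted p under 0.05, 3, 7, 12, 13, 10 and 10 members differed at days 4, 6, 8, 10, 11 and 12.

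The median difference over the 20 members was 0.01 at day 4, -0.06 at day 6, -0.25 at day 8, -0.34 at day 10, -0.25 at day 11 and -0.26 at day 12, while the median over all genes tested lay between -0.02 and 0.04. The sizes were small for single genes. Across these 6 comparisons, among members detected in both groups, only Rps3a1 at day 12 (-1.16) passed the test with a difference of 2-fold or more. Every array of the day lay below every non-pregnant array for 0, 1, 6, 7, 5 and 5 of the 20 members at days 4, 6, 8, 10, 11 and 12. The shares of all genes were 2.33%, 4.36%, 15.8%, 16.8%, 17.4% and 15.7%. Rpl3l, the 1 member at day 6, was also among those of day 8 and was detected on no array of either day.

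**Figure D1:**
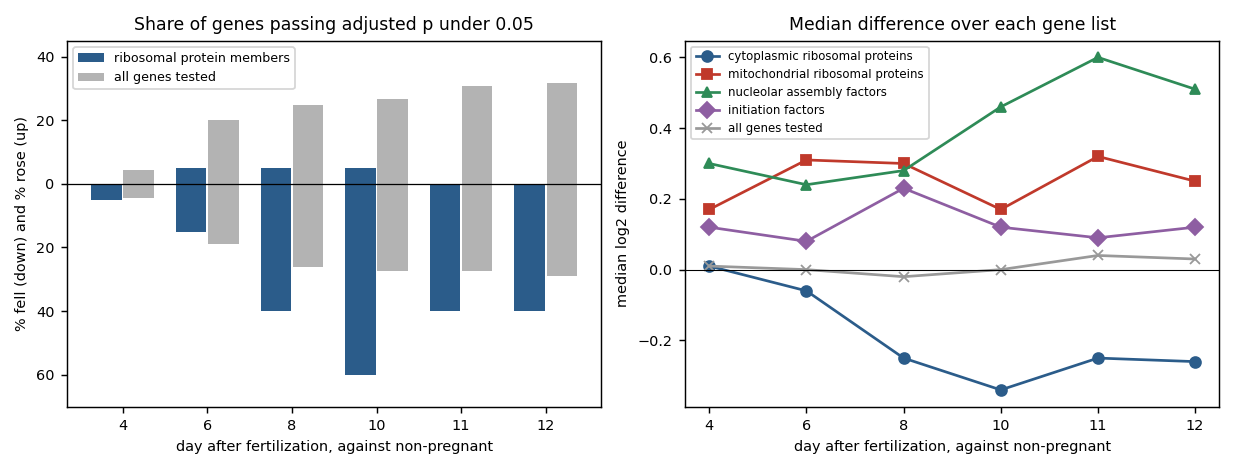
The left panel plots the percentage of genes that rose (up) or fell (down) at adjusted p under 0.05 at each day against non-pregnant uterus, for the 20 ribosomal protein genes and for all 10412 genes tested. The right panel plots the median log2 difference over them, over 3 other gene lists and over all genes. Falls reach 60% of the ribosomal protein genes at day 10 against 27.4% of all genes, and their median lies at -0.34 there.

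These counts depended on single arrays at some days. The day 10 count of 13 members was 8 without day 10 replicate 4. The day 8 count of 9 was 5 without day 8 replicate 2. The day 6 count of 4 was 1 without day 6 replicate 5 or without non-pregnant replicate 5. The day 4 count of 1 was 0 without any of the day 4 replicates 1 to 4 or of the non-pregnant replicates 1, 2, 3 and 5, and 3 without non-pregnant replicate 6. With the pair of dim arrays left out, the members that rose and fell were 1 and 1 at day 4, 2 and 3 at day 6, 1 and 14 at day 8, 1 and 13 at day 10, 1 and 11 at day 11, and 2 and 11 at day 12. The day with the most falls thus depended on the arrays used. It was day 10 with all arrays (12 falls, 8 at day 8), and day 8 without the dim pair, while without day 10 replicate 4 the falls at day 10 were 8, as many as at day 8 with all arrays.

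The counts also depended on how the arrays were scaled. With the arrays set to the same median in place of the same distribution, members that rose and fell were 0 and 0 at day 10, 0 and 1 at day 11 and 0 and 1 at day 12, and with the median taken over probes detected on every array they were 0 and 3, 2 and 3, and 0 and 4. The member median at day 10 was -0.15 and -0.13 under these scalings, below 0 as before, while at day 4 it was 0.17 under the first and -0.04 under the second. Over the 11 comparisons, 50 calls of single members were made. Of these, 5 stayed past the threshold with median scaling and 16 with the median of detected probes, and 41 with cyclic loess, 43 with the authors' series matrix and 48 without background correction. Under none of these 5 alternatives did a called member change sign. Averaging the probes of a gene kept 41 calls, lost 4 and reversed 5. The reversed calls were those of Rpl38 at days 8, 10 and 12 and of Rps19 at days 10 and 11.

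**Figure D2:**
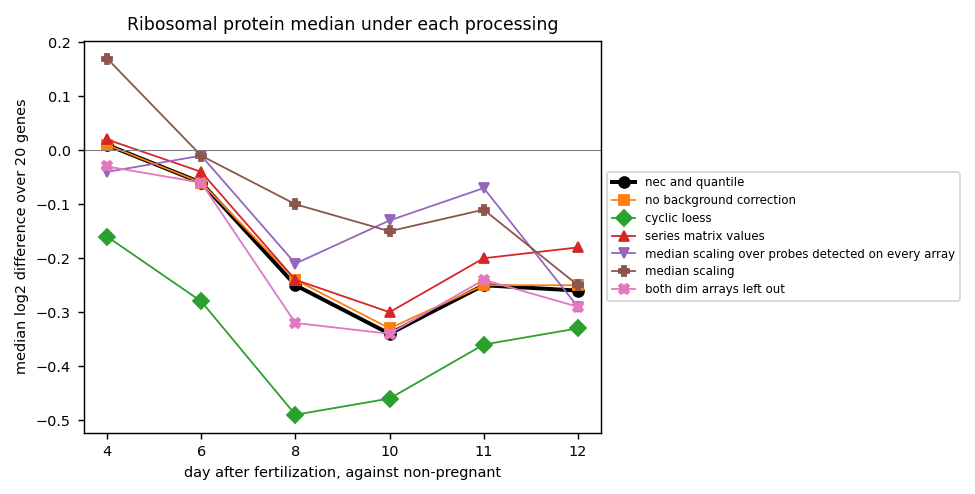
Median log2 difference over the 20 ribosomal protein genes (vertical axis) at each day against non-pregnant uterus (horizontal axis), with 1 line for each way of processing the arrays. At days 8 to 12 each plotted line lies below 0, from -0.07 to -0.49, while at day 4 the lines run from -0.16 to 0.17.

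The falls from day 10 on are given by subunit. Of the 9 small subunit members, 7 fell at day 10, 6 at day 11 and 5 at day 12, with 0 rises and medians of -0.49, -0.38 and -0.36. Of the 11 large subunit members, 5, 2 and 3 fell on these days and 1, 0 and 0 rose, with medians of -0.13, -0.07 and -0.18. The falls were 77.8%, 66.7% and 55.6% of the small subunit members and 45.5%, 18.2% and 27.3% of the large subunit members. Of all genes 27.4%, 27.5% and 29% fell, so the large subunit share was below that of all genes at day 11 and near it at day 12. The large subunit members include Rpl3l, Rpl7l1 and Rpl22l1, which fell on none of these days, as did Rps27l and Rps7 of the small subunit. The difference between the subunits was not tested. At day 10 all 9 small subunit members had a negative difference, and of the large subunit members 7 did.

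Rps4x is the small subunit protein encoded on the X chromosome. Its level on the 4 day 10 arrays was 13.81, 13.91, 13.95 and 13.89, against a range of 14.27 to 14.96 and a median of 14.57 on the 6 non-pregnant arrays. The day 10 arrays all lay below the non-pregnant ones, as did those of day 11, which ran from 13.69 to 13.94, and of day 12, which ran from 13.84 to 14.15. Rps4x fell by 0.69 at day 10 (SE 0.16, adjusted p = 6.01e-04, limma), by 0.74 at day 11 (SE 0.16, adjusted p = 2.25e-04, limma) and by 0.51 at day 12 (SE 0.15, adjusted p = 0.00408, limma). With the median of detected probes as scale, the differences were -0.38, -0.44 and -0.48, and each passed. With the arrays set to the same median over all probes, they were -0.40, -0.47 and -0.44, and none passed (adjusted p = 0.305, 0.201 and 0.199, limma).

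Rps9, a protein of the body of the small subunit, fell on the same days. It stood at 14.09, 13.76, 13.93 and 13.80 on the day 10 arrays, against 14.16 to 14.71 (median 14.60) on the non-pregnant arrays. The groups did not overlap at day 10, where Rps9 fell by 0.66 (SE 0.12, adjusted p = 1.65e-05, limma), or at day 11, where it fell by 0.64 (SE 0.12, adjusted p = 2.27e-05, limma). At day 12 it fell by 0.53 (SE 0.11, adjusted p = 1.07e-04, limma), and the highest day 12 array, at 14.18, lay above non-pregnant replicate 4, a dim array, at 14.16. Before that, at day 4, Rps9 ran from 14.35 to 14.72, overlapping with the non-pregnant arrays.

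Rps3a1, a small subunit protein near the mRNA exit, showed the largest difference from non-pregnant uterus of any member detected in both groups. The 5 day 12 arrays had 8.29, 8.05, 7.95, 8.37 and 8.05, against 8.69 to 9.74 (median 9.37) on the non-pregnant arrays, with no overlap. The difference was -0.89 at day 8 (adjusted p = 1.50e-04, limma), -0.74 at day 10 (adjusted p = 9.68e-04, limma), -0.91 at day 11 (adjusted p = 8.63e-05, limma) and -1.16 at day 12 (SE 0.17, 95% interval -1.50 to -0.81, adjusted p = 8.35e-07, limma). The non-pregnant arrays of this probe lay in 2 ranges, with 8.69, 8.95 and 9.06 on replicates 2, 1 and 3, and 9.66 to 9.74 on replicates 4, 5 and 6. Rps3a1 was the 1 member that fell at days 11 and 12 under every alternative, including plain median scaling, where the day 12 difference was -1.04.

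Rps19, whose human counterpart is mutated in Diamond-Blackfan anaemia, fell at days 10, 11 and 12 and passed at no earlier day against non-pregnant uterus. Its 4 arrays at day 11 had 13.90, 14.14, 13.96 and 13.89, against 14.11 to 14.47 (median 14.40) on the non-pregnant arrays, where only the dim replicate 4 lay below 14.34. The difference was -0.26 at day 10, -0.38 at day 11 and -0.36 at day 12 (SE 0.09 each, adjusted p = 0.0211, 8.38e-04 and 6.97e-04, limma). The 5 day 12 arrays, from 13.86 to 14.09, did not overlap with the non-pregnant ones. The Rps19 calls at days 10, 11 and 12 were lost under both median scalings. A dimmer Rps19 probe, described below, rose by 1.15 at day 10 and by 0.77 at day 11.

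Rps3 lines the entry of the mRNA channel. On the day 10 arrays it had 12.52, 12.62, 12.53 and 12.35, against 13.08 to 13.45 (median 13.23) on the non-pregnant arrays, and the groups did not overlap at day 8, 10, 11 or 12. Rps3 fell by 0.53 at day 6 (adjusted p = 0.037, limma), by 0.61 at day 8 (adjusted p = 0.0242), by 0.74 at day 10 (SE 0.23, adjusted p = 0.00675) and by 0.59 at day 11 (adjusted p = 0.0271), while at day 12 the difference of -0.45 did not pass (adjusted p = 0.0674). The day 6 value rested on the dim day 6 replicate 4, at 11.13 with the remaining 5 arrays of its group between 12.67 and 13.19, and without that array it was -0.21 (adjusted p = 0.0593). With non-pregnant replicate 4 left out as well, it was -0.25 and passed (adjusted p = 0.0294).

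Of the other small subunit members, Rps10 fell at day 8 (-0.45), day 10 (-0.43) and day 11 (-0.29, adjusted p = 0.0465), and at day 8 and day 10 its arrays lay below all non-pregnant arrays. The day 11 call was lost under 12 of 21 alternatives, among them both dim arrays out and the series matrix. Rps29, a small zinc-binding protein, fell by 0.27 at day 10 (adjusted p = 0.0187) and at day 12 (adjusted p = 0.0101). Rps7 had a difference of -0.49 at day 10 with a 95% interval from -1.04 to 0.07 (adjusted p = 0.134), and with all arrays it passed at no day. It stood at 11.35 on day 6 replicate 4 and at 12.69 on non-pregnant replicate 4, both dim arrays, while the rest of day 6 ran from 13.33 to 13.60 and the rest of the non-pregnant group from 13.43 to 13.94. With the dim pair left out, Rps7 fell by 0.40 at day 8 (adjusted p = 0.00706, limma), 0.64 at day 10 (adjusted p = 6.24e-05), 0.44 at day 11 (adjusted p = 0.00298) and 0.51 at day 12 (adjusted p = 3.72e-04).

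**Figure D3:**
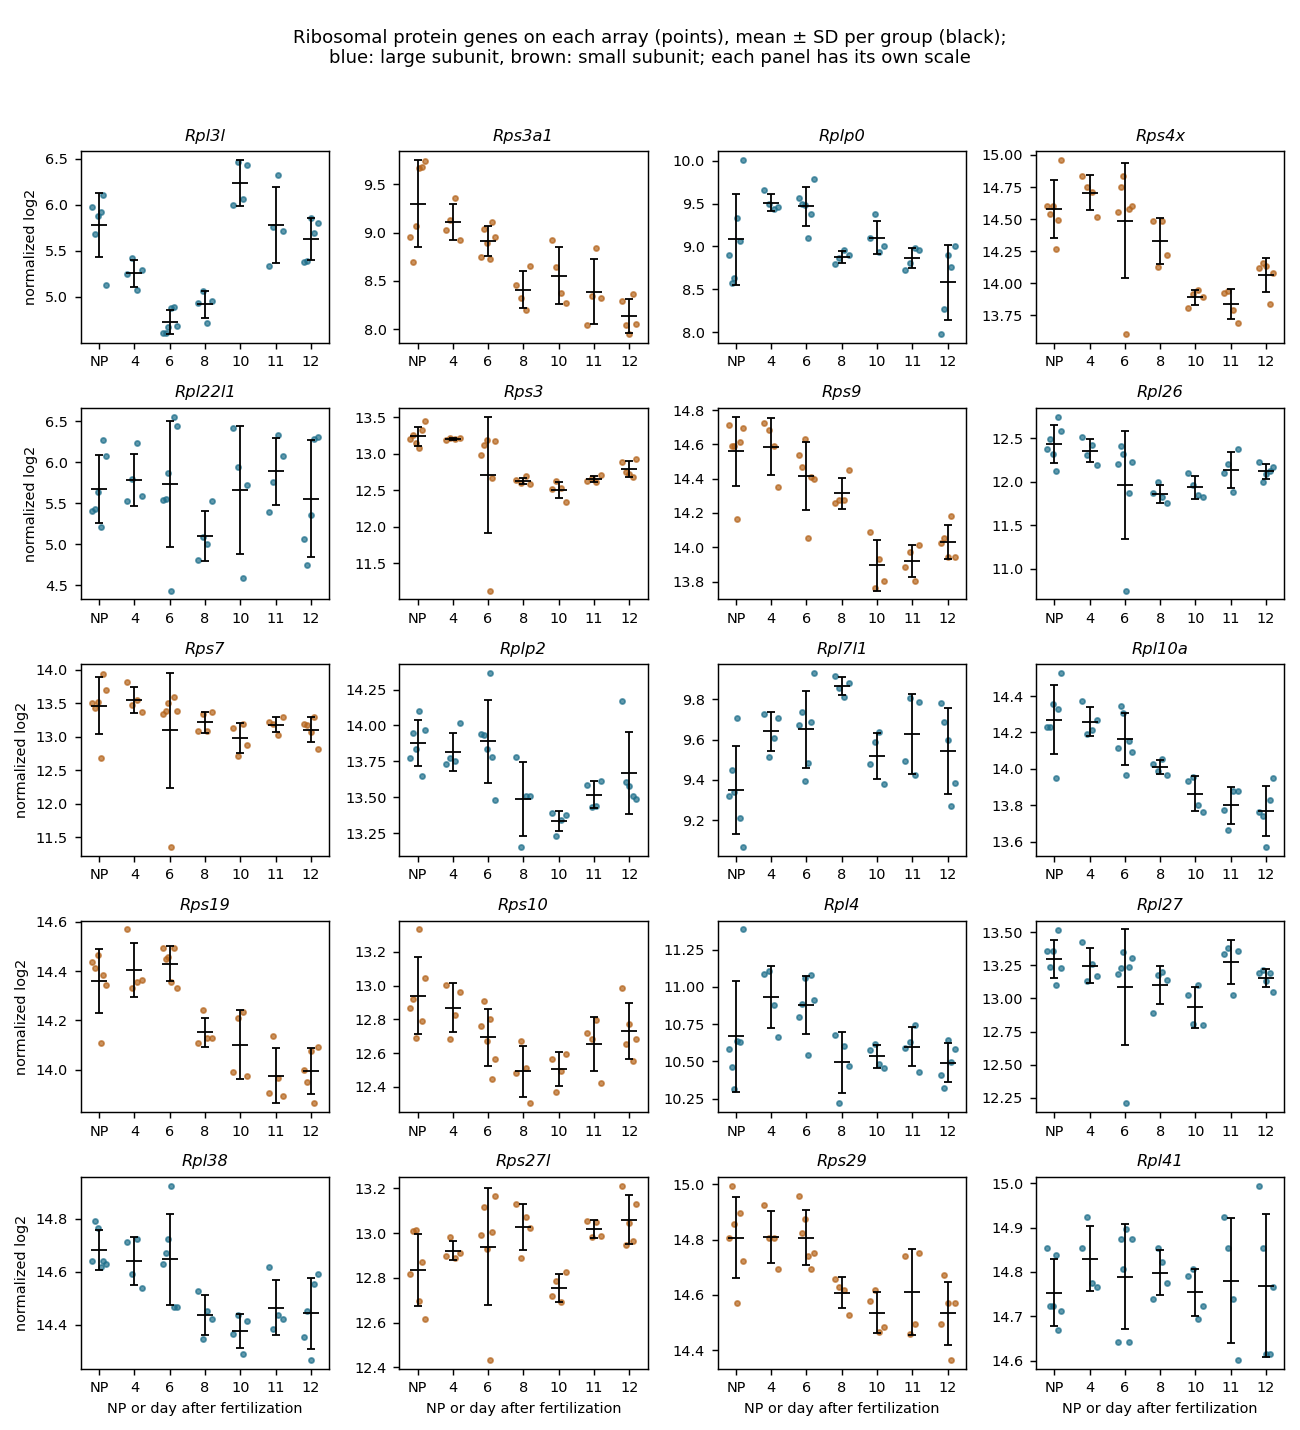
Normalized log2 intensity (vertical axis, its own scale in each panel) of the 20 ribosomal protein genes on each of the 33 arrays, ordered by non-pregnant uterus (NP) and day after fertilization, with black bars for mean ± SD. The group means of Rps4x, Rps9 and Rpl10a are lower at days 10 to 12 than in non-pregnant uterus, Rpl3l is not above background at days 6 and 8, Rpl41 spans 0.08 between its highest and lowest group means, and a single day 6 array lies far below the others for Rps3, Rps7, Rpl26 and Rpl27.

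Among the large subunit proteins, Rpl10a, a protein of the mobile stalk on the side where tRNA leaves, fell at each day from day 8. It had 13.93, 13.96, 13.80 and 13.76 on the day 10 arrays, against 13.95 to 14.53 (median 14.28) on the non-pregnant arrays, and only day 10 replicate 2 and the dim non-pregnant replicate 4 met. The differences were -0.26 at day 8 (adjusted p = 0.0358, limma, lost under 11 of 21 alternatives), -0.41 at day 10 (adjusted p = 0.00146), -0.47 at day 11 (adjusted p = 2.83e-04) and -0.50 at day 12 (SE 0.10, adjusted p = 5.58e-05). With these values Rpl10a, Rps19, Rps3a1, Rps4x and Rps9 were the 5 members that fell at each of days 10, 11 and 12. A further 8 fell at 1 or 2 of these days, and 14 of 20 had a negative difference at all 3. The Rps19 falls hold for its brighter probe only.

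The stalk proteins recruit translation factors to the ribosome. Rplp2 fell at day 8 (-0.39), day 10 (-0.54, SE 0.14, adjusted p = 0.00201, limma) and day 11 (-0.36), with 13.39, 13.23, 13.34 and 13.38 on the day 10 arrays, against 13.65 to 14.10 (median 13.89) on the non-pregnant arrays. At day 12 it was -0.21 (adjusted p = 0.182), with 1 array at 14.17 and the other 4 between 13.49 and 13.60. Rplp0 anchors the stalk. On the day 4 arrays Rplp0 ran from 9.44 to 9.66, against 8.57 to 10.00 (median 8.98) on the non-pregnant arrays, a difference of 0.43 that did not pass (95% interval 0.01 to 0.84, adjusted p = 0.204). By day 12 it stood at 7.98 to 8.90 on 4 arrays and slightly above on replicate 5, overlapping with the non-pregnant arrays, and fell by 0.50 (adjusted p = 0.0227). That call was lost without non-pregnant replicate 6, the highest of its group, where the difference was -0.32 (adjusted p = 0.0918).

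Rpl38, which in mouse embryos is needed for the translation of Hox mRNAs, fell by small steps, by 0.25 at day 8, 0.31 at day 10 (SE 0.10, adjusted p = 0.00856, limma) and 0.24 at day 12. Its arrays lay between 14.29 and 14.44 at day 10, against 14.62 to 14.79 (median 14.64) in non-pregnant uterus, without overlap. The day 8 call was lost under 8 and reversed under 1 of 21 alternatives. The day 12 call was lost under 8, among them the series matrix and cyclic loess, and reversed under 1 of 22. A dimmer Rpl38 probe, described below, rose by 0.89, 1.12 and 0.78 at days 8, 10 and 12. Rpl26, next to the exit of the peptide tunnel, fell at day 6 (-0.47), day 8 (-0.58) and day 10 (-0.50, adjusted p = 0.0312). As for Rps3, its day 6 call was lost without the dim day 6 replicate 4, with a difference of -0.23 (adjusted p = 0.097), and with both dim arrays out it was -0.29 and passed (adjusted p = 0.028). Rpl27 fell at day 10 alone (-0.37, adjusted p = 0.0417), a call lost under 10 of 21 alternatives, among them the series matrix. Rpl4, a core protein of the large subunit, passed at no day and ran between a difference of 0.27 at day 4 and -0.18 at day 12, and non-pregnant replicate 6, at 11.39, lay above the other 5 arrays of its group (10.31 to 10.63).

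**Figure D4:**
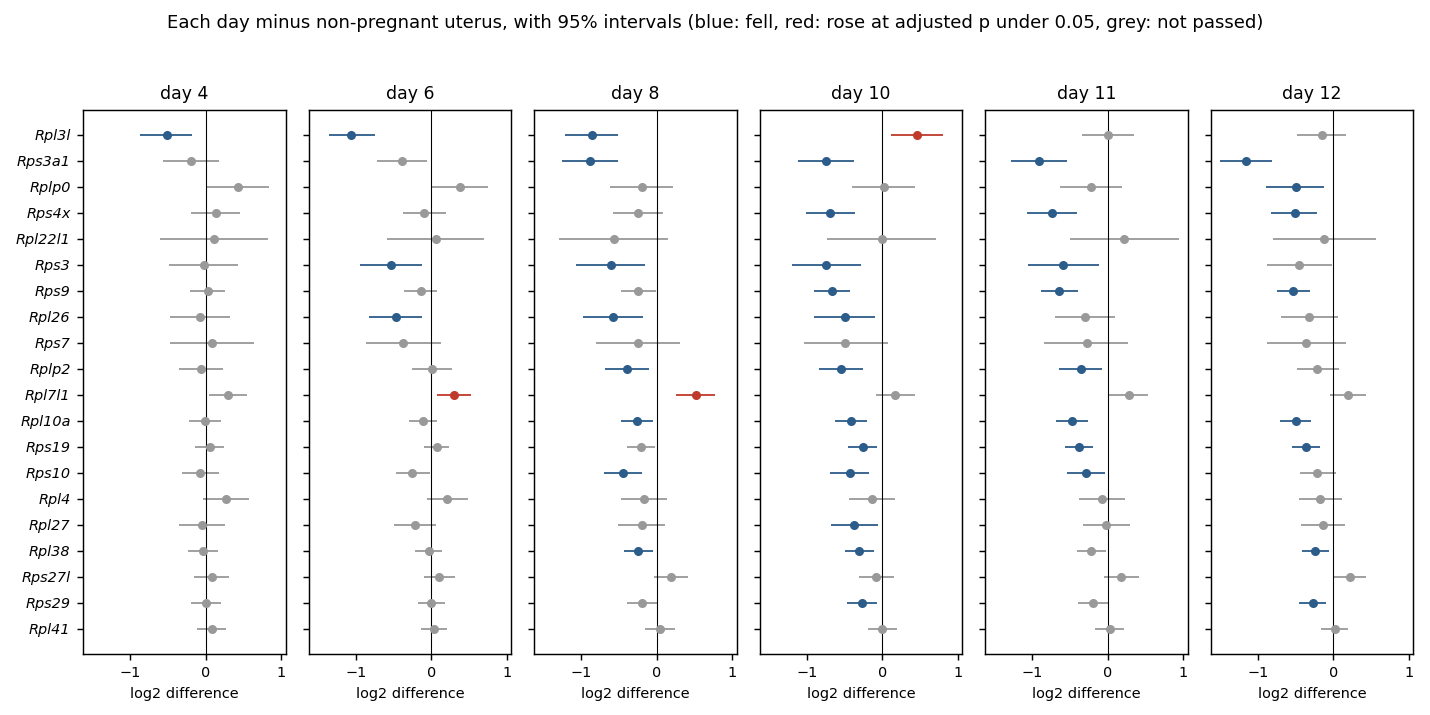
Difference in log2 (horizontal axis) of each day minus non-pregnant uterus for the 20 ribosomal protein genes (rows), with 95% intervals, blue where the gene fell and red where it rose at adjusted p under 0.05. Blue points number 12 at day 10 and 1 at day 4, and the 3 red points are Rpl7l1 at days 6 and 8 and Rpl3l at day 10.

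The symbols of 4 members, Rpl3l, Rpl22l1, Rpl7l1 and Rps27l, belong to relatives of other ribosomal proteins (Rpl3, Rpl22, Rpl7 and Rps27). Those other proteins were not among the genes named here. The 4 members held all 3 rises. Rpl3l, which in mouse replaces Rpl3 in the ribosomes of heart and skeletal muscle, was a dim probe. It was detected on 4 of 6 non-pregnant arrays, on 3 of 4 at day 4, on none of the 6 day 6 arrays, on none of the 4 day 8 arrays, and on all arrays of days 10, 11 and 12. The day 10 arrays had 5.99, 6.47, 6.06 and 6.43, the day 8 arrays 4.94, 5.07, 4.72 and 4.95, and the non-pregnant arrays 5.13 to 6.11 (median 5.90).

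Since a probe that is not well above background has only a bound, Rpl3l was at least 1.37-fold lower at day 6 (measured means 4.72 and 5.78, adjusted p = 1.44e-06, limma) and at least 1.37-fold lower at day 8 (4.92 and 5.78, adjusted p = 8.16e-05, limma) than in non-pregnant uterus. Each bound compares the brighter group's mean with the dim group's mean after raising each of its arrays to the lowest signal detected on that array. At day 10 Rpl3l was at least 1.89-fold higher than at day 8 (6.24 and 4.92, adjusted p = 1.74e-06, limma), and higher by 0.46 than in non-pregnant uterus (SE 0.17, adjusted p = 0.0225, limma). That rise was lost under 7 of 21 alternatives, among them those without non-pregnant replicate 6, day 10 replicate 2 or day 10 replicate 4, both median scalings and the authors' series matrix. At day 4 it fell by 0.52 (adjusted p = 0.0464), a call lost under 15 of 21 alternatives.

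Rpl7l1 rose early. It had 9.91, 9.86, 9.81 and 9.88 on the day 8 arrays, against 9.07 to 9.71 (median 9.33) on the non-pregnant arrays, with every day 8 array above every non-pregnant one. The difference was 0.30 at day 6 (adjusted p = 0.0318, limma) and 0.52 at day 8 (SE 0.13, 95% interval 0.26 to 0.77, adjusted p = 9.61e-04, limma), and 0.17 to 0.28 at days 10 to 12, where it did not pass. The day 6 call was lost under 10 of 23 alternatives, among them cyclic loess, and the day 8 call under 1 of 21. Rps27l had 0.22 at day 12 (95% interval 0.01 to 0.44, adjusted p = 0.0677) and passed at no day. With the median of detected probes as scale, Rps27l differed by 0.33 at day 8 and 0.42 at day 11 and passed. Rpl22l1 was dim and scattered, detected on 25 of 33 arrays, with 1 of 4 at day 8, and its intervals were wide (-1.29 to 0.15 at day 8).

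Rpl41, a very short and strongly basic protein of the large subunit, had the narrowest range of group means. They spanned 0.08, from 14.75 to 14.83, and the Rpl41 difference at day 10 was 0.00 with a 95% interval from -0.19 to 0.19. The next smallest spans were 0.27 for Rps29 and 0.30 for Rps27l. The Rpl41 probe stood at 66.8% to 98.7% of the brightest probe of its array, Rps29 at 44.3% to 96.8% and Rpl38 at 48.8% to 87.3%. At their highest, Rps4x reached 93.8%, Rps9 87.7%, Rps19 78.8% and Rpl10a 71.4%. Near the top of the scale a change in RNA may be measured too small. How far this held here was not tested.

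Any difference among the 7 groups was found for 14 of 20 members by limma's moderated F test at adjusted p under 0.05, against 80.2% of all genes tested. The lowest adjusted p-values were 1.20e-08 for Rpl3l, 1.73e-06 for Rps9 and 3.37e-06 for Rps3a1. The members that did not pass were Rpl22l1, Rps7, Rpl27, Rps27l, Rpl41 and Rpl26, for which the adjusted p was 0.0543.

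Between successive days 7 member calls were made in all. Day 6 against day 4 had 1 fall, Rpl3l, where 25.7% of all genes passed, 13.1% as rises and 12.6% as falls. Rpl3l was detected on no day 6 array and its bound came to less than 1, so no fold is given. Day 8 against day 6 had 4 falls and 0 rises, where 20.3% of all genes passed, 10.1% as rises and 10.3% as falls. They were Rplp0 (-0.59, adjusted p = 0.0373, limma), Rps3a1 (-0.50, adjusted p = 0.0492), Rplp2 (-0.40, adjusted p = 0.0454) and Rps19 (-0.28, adjusted p = 0.0321). Rplp0 had 8.79, 8.87, 8.96 and 8.90 at day 8, against 9.10 to 9.79 (median 9.49) at day 6, with no overlap. The 4 falls became 0 without day 6 replicate 3 or without day 8 replicate 3, became 1 without day 6 replicates 1 or 2 or without day 8 replicates 1, 2 or 4, became 2 without day 6 replicates 5 or 6, and became 7 without the dim day 6 replicate 4.

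Day 10 against day 8 had 1 rise, Rpl3l (at least 1.89-fold, the bound given above), and 1 fall, Rps9 (-0.42, SE 0.13, adjusted p = 0.0189, limma), where 18% of all genes passed, 9.99% as rises and 8.06% as falls. Rps9 had 13.76 to 14.09 on the day 10 arrays and 14.26 to 14.45 on the day 8 arrays, without overlap, and its call was lost without day 10 replicates 2 or 4 or day 8 replicate 4. Day 11 against day 10 had 0 calls by limma, with 3 members at an unadjusted p under 0.05 (14.2% of all genes passed, 8.23% as rises and 5.95% as falls), and it had 1 fall without day 11 replicate 3. Day 12 against day 11 had 0 calls, with 0 members at an unadjusted p under 0.05 (6.63% of all genes passed, 3.37% as rises and 3.26% as falls). The single call of day 6 against day 4 was lost without day 4 replicate 2.

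For 5 members a further probe was measured, and for Rpl38 and Rps19 it differed in the other direction at the days when the brighter probe fell. The dimmer Rpl38 probe averaged 9.19 at day 11 and 9.02 at day 6, against 7.83 in non-pregnant uterus. That probe rose by 1.35 at day 11 (adjusted p = 1.67e-09, limma, adjusted over all genes tested and these 5 probes) and by 1.19 at day 6 (adjusted p = 8.71e-09, limma). On these days the brighter probe differed by -0.22 and -0.03 and did not pass. At day 10 the dimmer probe rose by 1.12, while the brighter probe fell by 0.31. The dimmer Rps19 probe rose by 0.86 at day 6, 0.88 at day 8 and 1.15 at day 10 (adjusted p = 2.53e-06, limma), with arrays of day 10 between 6.11 and 6.92 against 4.86 to 5.62 in non-pregnant uterus. On these days the brighter Rps19 probe differed by 0.07, -0.21 and -0.26, and only the day 10 fall passed. For Rps9 both probes fell, the dimmer by 0.85 at day 10 and 0.80 at day 12. The dimmer Rps3 probe fell by 0.66 at day 10 (adjusted p = 0.0479, limma), and the dimmer Rpl7l1 probe rose by 0.57 at day 8 (adjusted p = 0.0109, limma), as the brighter probes of these genes did. At days 6, 8 and 11, where the brighter Rps3 probe fell, the dimmer differed by -0.22, -0.60 and -0.49. None of these 3 differences passed (adjusted p = 0.522, 0.0782 and 0.138, limma). Which transcripts the probes of Rpl38 and Rps19 read is not given in the sources used here, and the direction for these 2 genes holds for the brighter probe only. Many ribosomal protein genes have near-identical pseudogene copies, whose RNA a probe may also bind.

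**Figure D5:**
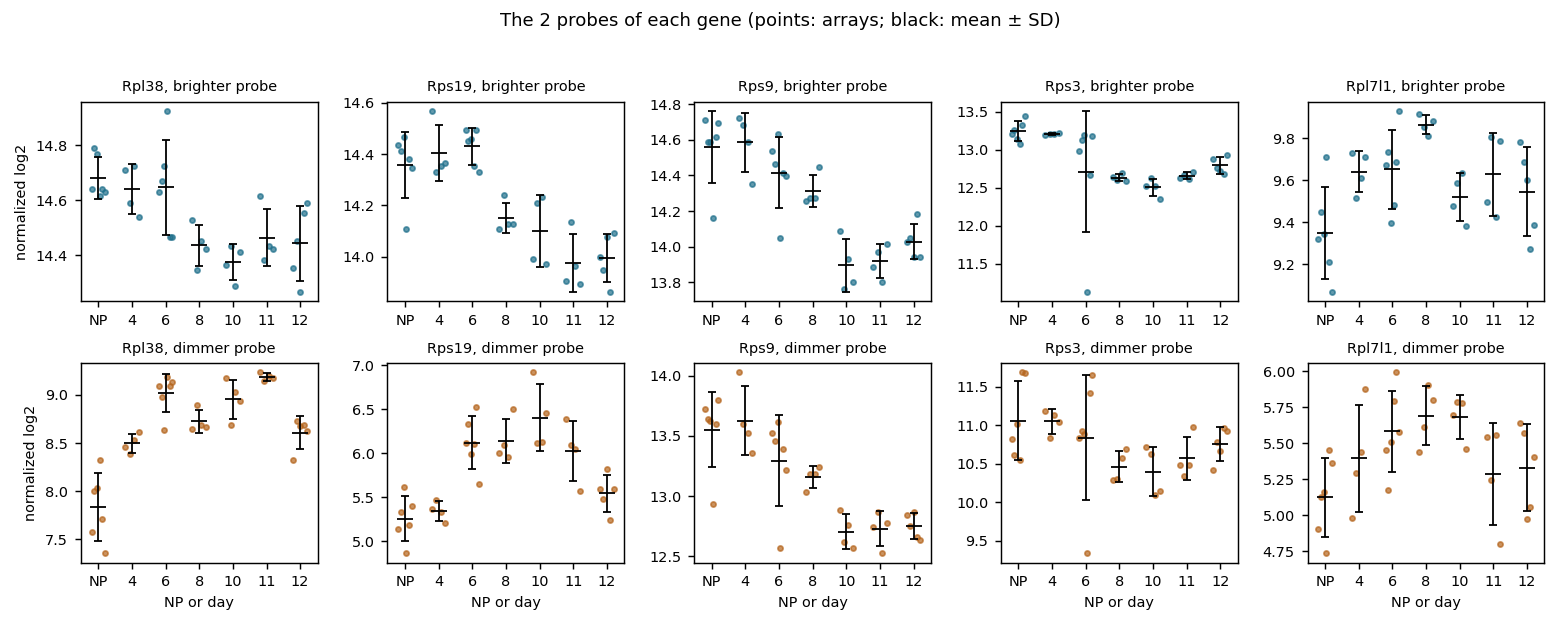
Normalized log2 intensity (vertical axis, its own scale in each panel) of the brighter (upper row) and dimmer (lower row) probe of the 5 ribosomal protein genes with 2 probes, on each array from non-pregnant uterus (NP) to day 12, with black bars for mean ± SD. The dimmer probes of Rpl38 and Rps19 have higher means at days 6 to 11 than in non-pregnant uterus while the brighter ones have lower means from day 8 on, and both probes of Rps9 are lower at days 10 to 12.

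Within groups the members did not move as 1 block. Over the 18 members detected on all arrays, the 153 pairwise Pearson correlations of deviations from the group means across 33 arrays had a median of 0.13, with 25 above 0.5 and 63 below 0, and without the 2 dim arrays the median was 0.08. These are descriptions over arrays that share their normalization. The highest were Rpl26 with Rps3 (0.92) and Rpl27 with Rps7 (0.92), 4 genes that were all low on day 6 replicate 4. With each gene centred on its mean, the member median per array ran from -0.23 to -0.09 at day 10, -0.14 to -0.06 at day 11, -0.16 to -0.08 at day 12 and -0.10 to -0.08 at day 8, against -0.02 to 0.38 in non-pregnant uterus. The arrays of day 4 (0.10 to 0.30) and day 6 (-0.11 to 0.20) overlapped with the non-pregnant ones.

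Among other genes of the translation machinery, the nucleolar assembly factors and the mitochondrial ribosomal proteins had more rises than falls. Of 48 measured nucleolar assembly factors, 28 rose and 1 fell at day 10 (58.3% and 2.08%, against 26.6% and 27.4% of all genes), with a median of 0.46, and 34 rose and 1 fell at day 11 (median 0.60). The largest at day 10 were Rrp12, needed for export of ribosomal precursors (9.86 at day 10, 8.50 in non-pregnant uterus, adjusted p = 3.64e-05, limma), and Pno1, an assembly factor of the small subunit (9.76 and 8.50, adjusted p = 3.18e-05, limma). Of 66 mitochondrial ribosomal proteins, which serve a separate ribosome, 31 rose and 1 fell at day 6 (47% and 1.52%, against 20% and 18.9% of all genes, median 0.31). A further count, at day 10, was 18 rises and 2 falls (median 0.17). At day 10 the mitochondrial rises were 27.3%, near the 26.6% of all genes, and the falls 3.03%, against 27.4% of all genes. Mrps18b rose by 0.84 and Mrpl20 by 0.76 at day 10. At days 4, 8, 11 and 12 the mitochondrial list had 3, 28, 32 and 26 rises with 0, 4, 1 and 5 falls, and the nucleolar list had 7, 21, 34 and 28 rises with 0, 0, 1 and 2 falls. Of all genes, 4.46%, 24.8%, 30.7% and 31.8% rose and 4.52%, 26.2%, 27.5% and 29% fell on these days. The 3 mitochondrial rises at day 4 (4.55%) were thus near the share of all genes. These lists share the non-pregnant arrays with the ribosomal protein genes, and no test between lists was made.

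At day 10, where 26.6% of all genes rose and 27.4% fell, the other lists held 6 to 25 measured genes. Of RNA polymerase I genes 25% rose and 25% fell, and of initiation factors 24% rose and 16% fell, at or below the shares of all genes. In counts, 3 of 12 measured genes of RNA polymerase I, which transcribes ribosomal RNA, rose and 3 fell, with Polr1e at 1.13 and Polr1d, a subunit shared with RNA polymerase III, at -0.66. Of 25 initiation factors 6 rose and 4 fell, with Eif1a at 1.11 and Eif4a2, a helicase, at -1.09. Of 6 genes in the elongation factor list 2 rose and 2 fell, led by Eef1e1 (1.30), which belongs to the aminoacyl-tRNA synthetase complex, and Eif5a (0.85). Among 9 other genes whose mRNAs carry the TOP motif, 1 rose (Nap1l1, a histone chaperone, 0.67) and 3 fell, with Naca, which guards nascent peptides, at -0.64. Of 10 genes that regulate ribosome supply, 4 rose and 1 fell. Eif4ebp1, a brake on cap-dependent translation, was 11.64 at day 10 and 9.51 in non-pregnant uterus (adjusted p = 1.89e-09, limma), and the cell cycle inhibitor Cdkn1a was 10.17 and 8.81 (adjusted p = 6.63e-05, limma).

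The cell types in the tissue moved over the same days. The mean over 5 erythroid genes was 12.39 to 12.68 on the day 10 arrays, 13.30 to 13.45 at day 11 and 13.52 to 13.69 at day 12, against 4.51 to 4.82 in non-pregnant uterus, and all 5 rose at each of these days. The embryonic globins Hbb-y, Hbb-bh1 and Hba-x were detected on none of the non-pregnant arrays. All 3 trophoblast genes and all 5 yolk sac genes rose at days 10, 11 and 12, and the trophoblast mean was 12.79 to 13.12 at day 10, against 4.34 to 4.49 in non-pregnant uterus. Over the 6 epithelial genes, all fell at days 6 and 8, and their mean was 6.73 to 7.10 at day 8, against 8.20 to 11.17 in non-pregnant uterus. All 6 decidual genes rose at days 6 and 8, and the decidual mean was 9.03 to 9.35 at day 8, against 4.92 to 5.66. The mean over the 8 stroma and muscle genes was 8.67 to 8.95 at day 12, against 9.57 to 10.34 in non-pregnant uterus, and 5 of 8 fell. The 4 natural killer genes all rose at day 10, with a mean of 11.73 to 11.94 against 5.86 to 6.51, and 3 of 4 macrophage genes fell there while 1 rose (mean 7.32 to 8.02, against 7.32 to 10.01). The part of these shifts in the ribosomal protein differences was not tested.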

How the data were processed

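The arrays of 33 samples were analysed from 2 deposited tables. The first, deposited without normalization, gives for 45281 probes an intensity, which runs from 75.2 to 40565 and is read as linear from its values. Beside each intensity the authors deposited a detection p-value. The deposited series matrix holds log2 values (16712 probes), quantile normalized by the authors, as its columns share 1 distribution. Per the labels, biotin cRNA was made from DNase-treated RNA. The scanner software and the normalization program are not given in the sources used here. Replicate numbers, which differ between the tables for 16 of 33 arrays within a group, are those used with the intensities.

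Intensities were background corrected (limma nec, detection p, offset 16), quantile normalized and put on log2. Probes with detection p under 0.01 on at least 4 arrays were kept, and 1 symbol per probe was required (15254 probes, 5 with several symbols, 1453 series matrix probes unnamed here), which left 10412 genes. limma 3.58.1 in R 4.3.3 fitted 1 mean per group to all 33 arrays, and p-values were adjusted by Benjamini and Hochberg's method within each comparison (26 residual and 4.43 prior degrees of freedom). Differences are the day minus its comparison group, and 95% intervals use the moderated error. Precision rests on the 4 to 6 arrays per group. The members, gene lists and tests were chosen with earlier results of these data known. All 20 members are named. Of other lists the text names the 2 largest differences past the threshold at day 10, and of the marker lists genes that define them. The fit was tested on simulated data. Alternatives changed 1 choice at a time: the background step left out, arrays scaled to a common median or by cyclic loess, the authors' log2 matrix, all probes kept, probes of a gene averaged, a fit of 2 groups alone, array weights, replicate numbers as a block, and the dim pair or any 1 array left out. Median scaling over detected probes was added after seeing the data. Other software was statmod 1.5.0, matplotlib 3.10.9, pandas 2.3.3 and the R package data.table, version 1.17.8. No slide is given in the sources used here, so no slide block was fitted.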

Additional observations from a re-analysis of the deposited data

Results flagged for a closer look

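Over 147 groups of 4 to 6 arrays (20 members and their median, 7 groups each), 17 held an array whose gap to its nearest neighbour was large for the range of the group, where chance gives about 5% of groups. Of these, 7 were lows of day 6 replicate 4, a dim array. They were Rpl26 at 10.75 against 11.88 to 12.41 on the other day 6 arrays, Rpl27 at 12.21 against 13.19 to 13.35, Rps27l at 12.43 against 12.93 to 13.16, Rps3 at 11.13 against 12.67 to 13.19, Rps4x at 13.60 against 14.55 to 14.84, Rps7 at 11.35 against 13.33 to 13.60, and the centred member median at -0.11 against 0.09 to 0.20. Non-pregnant replicate 4, the other dim array, was low for Rps19 (14.11 against 14.34 to 14.47) and Rps9 (14.16 against 14.59 to 14.71).

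Non-pregnant replicate 6 was high for Rpl4 at 11.39 against 10.31 to 10.63. Rpl27 was low on day 11 replicate 3 at 13.03 against 13.33 to 13.38. Rplp2 was high on day 4 replicate 4 at 14.01 against 13.73 to 13.77, and on day 12 replicate 1 at 14.17 against 13.49 to 13.60. Rps19 was high on day 4 replicate 1 at 14.57 against 14.33 to 14.36, and on day 8 replicate 2 at 14.24 against 14.11 to 14.13. Rps4x was low on day 12 replicate 4 at 13.84 against 14.08 to 14.15, and Rps9 was high on day 8 replicate 4 at 14.45 against 14.26 to 14.28.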

How the results depend on the processing

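With each array left out in turn, the members that passed numbered 0 to 3 at day 4, 1 to 6 at day 6, 5 to 12 at day 8, 8 to 14 at day 10, 6 to 9 at day 11 and 7 to 9 at day 12 against non-pregnant uterus. They numbered 0 to 1 for day 6 against day 4, 0 to 7 for day 8 against day 6, 1 to 2 for day 10 against day 8, 0 to 1 for day 11 against day 10, 0 to 0 for day 12 against day 11, and 13 to 18 in the F test. The member medians ran from -0.03 to 0.05, -0.11 to -0.03, -0.32 to -0.22, -0.35 to -0.32, -0.29 to -0.22 and -0.30 to -0.23 at days 4 to 12, and from -0.13 to -0.04, -0.22 to -0.11, -0.09 to -0.06, 0.05 to 0.10 and -0.05 to 0.00 between successive days.

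Median scaling gave member medians of 0.17 (day 4), -0.10 (day 8), -0.15 (day 10), -0.11 (day 11), -0.25 (day 6 against day 4), -0.03 (day 8 against day 6) and -0.15 (day 12 against day 11), and it moved the median of all genes to 0.149 at day 4 and -0.162 for day 6 against day 4. Its counts were 0, 1, 1, 0, 1 and 1 at days 4 to 12, 0 for day 6 against day 4, 0 for day 8 against day 6, 1 for day 10 against day 8 and 2 in the F test. With the median over detected probes the medians were -0.13 (day 10), -0.07 (day 11), 0.11 (day 10 against day 8) and -0.22 (day 12 against day 11), and the counts were 0, 2, 4, 3, 5 and 4 at days 4 to 12, 0, 0 and 1 for the first 3 successive pairs, and 7 in the F test. Cyclic loess gave medians of -0.16, -0.28, -0.49, -0.46 and -0.36 at days 4 to 11, and counts of 0 (day 4), 9 (day 6), 0 (day 6 against day 4), 1 (day 8 against day 6) and 1 (day 10 against day 8).

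A fit of only the 2 groups compared gave 0 (day 4), 1 (day 6), 2 (day 8 against day 6), 4 (day 10 against day 8) and 1 (day 11 against day 10), and the F test was not run there. Array weights gave 3 (day 4), 14 (day 8), 10 (day 8 against day 6), 5 (day 10 against day 8) and 3 (day 11 against day 10). Both dim arrays left out gave 2 (day 4), 15 (day 8), 13 (day 12), 8 (day 8 against day 6), 5 (day 10 against day 8) and 2 (day 11 against day 10). At day 4 and for day 6 against day 4 the counts were 0 and 0 without background correction, 0 and 0 in the series matrix, and 2 and 3 with probes averaged. Deviations from the group means of same-numbered arrays of different groups had a median r of 0.012 (88 pairs, 19 above 0.1). For differently numbered arrays the median was 0.004 (376 pairs, 60 above 0.1). These values cannot tell whether the numbers pair samples, as some pairs of each kind correlate and the numbers differ between the deposited tables. The replicate block kept 42 of 50 calls, with counts of 2 (day 4), 2 (day 6 against day 4) and 2 (day 8 against day 6) and a median of -0.17 for day 6 against day 4. Averaging the probes of a gene turned Rpl38 to 0.31, 0.58, 0.32, 0.41, 0.57 and 0.27 at days 4 to 12 and Rps19 to 0.34, 0.44 and 0.19 at days 8, 10 and 11, since their second probes rose. Other causes were not tested. Of the 50 calls, those of Rpl3l at days 6 and 8 and for day 10 against day 8, and of Rps3a1 at days 11 and 12, passed under each alternative. Probes near background, as for Rpl3l and Rpl22l1, limit what can be measured.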
